A study of Mus musculus with 4 samples.

Results

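Netrins and their receptors were represented by 8 genes: the ligands Ntn1 and Ntn4, the DCC-family receptors Dcc and Neo1, and the UNC5-family receptors Unc5a, Unc5b, Unc5c and Unc5d. ATAC-seq, which reads where the transposase Tn5 can insert into open chromatin, was done on GFP-positive cervical motor neurons sorted at embryonic day 12.5 from mice carrying the Choline Acetyltransferase (ChAT)::GFP reporter. There were 2 control and 2 Hoxa5-deficient (mutant) libraries from littermates, called biological replicates by the submitters. The reporter is carried by all 4, Hoxa5 is a homeodomain transcription factor, and the labels give neither the Hoxa5 allele nor the number of embryos per library, so p-values measure only the spread between these libraries. Peak intervals of the 4 lists that overlapped by 1 bp or more were merged into 199576 regions. Each region went to the shortest protein-coding body around its midpoint, or failing that to the nearest one within 100 kb, which placed 165822 regions at a gene and 345 of them at these 8 genes. Of the 345, 270 lay inside a gene body and 75 outside. The farthest region kept lay 99.6 kb from Neo1 (chr9:59135763-59136634), and the nearest one left out lay 101 kb from Unc5b.

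Netrins are secreted, laminin-related proteins that guide growing axons. In the ventral spinal cord netrin-1 comes mainly from the floor plate. DCC on the growth cone mediates attraction to netrin-1, UNC5 receptors, alone or together with DCC, mediate repulsion, and neogenin, the product of Neo1, is a DCC relative that also binds repulsive guidance molecules. UNC5C is known from mouse mutants to be needed for the course of some motor axons, those of the phrenic nerve among them.

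The sources used here hold start sites and upstream sequence for 5 of the 8 genes (RefSeq, GRCm38.p6, the assembly that mm10 is made from), and each of these start sites lay in a region called in all 4 libraries. The 250 bases upstream of 3 of them are shown, 5′ to 3′ on the gene's strand with CpG dinucleotides in capitals, because these stretches are the open chromatin that both genotypes shared: Neo1 (chr9:59036442-59036691, minus strand), Unc5b (chr10:60831582-60831831, minus strand) and Unc5c (chr3:141465314-141465563, plus strand).
Neo1: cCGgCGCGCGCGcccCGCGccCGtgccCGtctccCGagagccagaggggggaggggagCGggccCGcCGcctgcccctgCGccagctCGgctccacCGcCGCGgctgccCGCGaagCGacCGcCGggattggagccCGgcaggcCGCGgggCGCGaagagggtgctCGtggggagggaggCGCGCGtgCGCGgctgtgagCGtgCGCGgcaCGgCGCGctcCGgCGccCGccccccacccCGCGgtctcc
Unc5b: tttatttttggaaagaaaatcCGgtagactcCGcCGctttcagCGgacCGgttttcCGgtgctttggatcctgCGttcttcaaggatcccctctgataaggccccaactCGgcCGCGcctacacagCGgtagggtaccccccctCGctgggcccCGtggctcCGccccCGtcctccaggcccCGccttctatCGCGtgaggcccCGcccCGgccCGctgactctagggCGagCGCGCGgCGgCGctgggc
Unc5c: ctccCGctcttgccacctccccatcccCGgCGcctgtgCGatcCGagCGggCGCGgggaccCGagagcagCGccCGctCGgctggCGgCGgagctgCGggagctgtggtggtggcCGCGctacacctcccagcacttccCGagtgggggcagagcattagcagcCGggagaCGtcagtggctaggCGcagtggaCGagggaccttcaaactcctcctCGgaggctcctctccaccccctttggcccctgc
They were rich in G and C, at 83.2% for Neo1, 66.8% for Unc5b and 71.2% for Unc5c, against a median of 52.4% over 32851 promoters. They held 45, 27 and 23 CpG dinucleotides, against a median of 6. The shared region covered all 250 bases at Neo1 and Unc5c and 236 of them at Unc5b. Neither TGATNNAT, the form of a Hox-Pbx site, nor the homeodomain core TAATNA was found on either strand in these 250 bases of Ntn4, Neo1, Unc5a, Unc5b or Unc5c. Over all promoters 7.68% held the first and 24.3% the second in the same window.

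The 8 genes carried more regions in both mutant libraries than in both control libraries. Control libraries 1 and 2 had 166 and 176 regions at them, and mutant libraries 1 and 2 had 226 and 233. The groups did not overlap, and the mean was 171 ± 7.07 in controls and 229.5 ± 4.95 in mutants (SD, n = 2 each). An exact two-sided permutation test gave p = 0.333, the smallest p that 2 against 2 libraries allow. Taken singly, Dcc, Unc5a, Unc5b, Unc5c and Unc5d each had more regions in both mutants than in both controls, at the same exact permutation p = 0.333. So did 37.6% of the 4764 genes with 10 or more regions, a number that each of the 8 genes reached. Those genes were not matched to the 8 for body length or for the number of regions beyond 10. The mutant lists were also longer, with 127458 and 138248 intervals in all against 115089 and 113505. With as many intervals in each list as in the shortest, the means at the 8 genes were 169 in controls and 202.5 in mutants, and their difference was 33.5 in place of 58.5. As a share of each library's assigned regions, the 8 genes held 0.175% and 0.193% in controls and 0.223% and 0.209% in mutants, again without overlap (exact permutation p = 0.333). Dcc, Unc5c and Unc5d together held 0.0905% and 0.113% against 0.144% and 0.127%. The other 5 genes overlapped between genotypes, at 0.0842% and 0.0800% against 0.0789% and 0.0827%. Counted singly, the shares of Dcc and Unc5a overlapped too, whereas those of Unc5b, Unc5c and Unc5d stayed higher in both mutants. The lists state no read depth. In such bulk libraries, fewer cells with an open region and a region less open in each cell cannot be told apart.

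**Figure D1:**
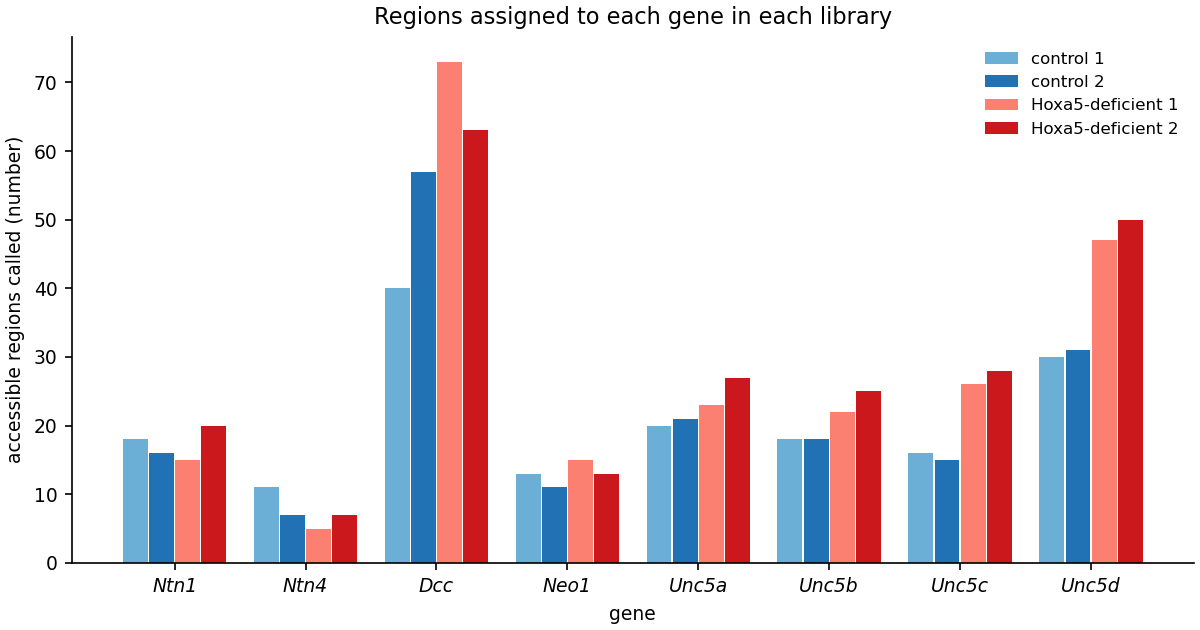
Number of accessible regions (vertical axis) assigned to each of the 8 genes, with 1 bar per library: 2 controls in blue and 2 Hoxa5-deficient libraries in red. Dcc, Unc5a, Unc5b, Unc5c and Unc5d had more regions in both mutant libraries than in both controls, whereas the libraries overlapped for Ntn1, Ntn4 and Neo1.

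Presence across libraries showed which regions made the difference. Of the 345 regions, 107 were called in all 4 libraries, 11 in both controls and neither mutant (control-only), 51 in both mutants and neither control (mutant-only), 30 in 3 libraries, 13 in 1 control and 1 mutant, and 133 in a single library. The last 3 classes were 8.70%, 3.77% and 38.6% of the 345, near the 9.66%, 4.48% and 38.5% of all assigned regions. Mutant-only regions were 14.8% of the 345, against 9.16% of all assigned regions. Control-only regions were 3.19%, against 3.50%, and regions in all 4 libraries 31.0%, against 34.7%. The control-only share did not keep its side of the background: with −log10 q of 5 or more it was 5.91% (11 of 186), against 4.44%, and with windows around summits 3.49%, against 3.41%. At the stricter q the share in all 4 libraries was 32.3%, against 46.8%, while inside the bodies up to 300 kb it was 42.9%, against 38.3%. Of the 8 genes, 7 had more mutant-only than control-only regions, as had 61.5% of the 4764 genes with 10 or more regions, not matched for body length. At Ntn1 and Unc5a this rested on 2 against 1, and Ntn4 had 1 control-only and no mutant-only region. With −log10 q of 5 or more Ntn1, Neo1 and Unc5a had as many control-only as mutant-only regions, and Ntn4 had neither. At that q Unc5b had 1 mutant-only and 0 control-only regions, in place of 6 and 1. In lists of equal length Ntn1 and Unc5a had 2 of each. In lists of equal length, 45 of 309 member regions (14.6%) were mutant-only, against 7.54% of all assigned regions.

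The mutant-only share differed with gene length. Inside bodies over 300 kb, which are those of Dcc, Unc5c and Unc5d, 36 of 193 regions (18.7%) were mutant-only, against 13.6% of all regions inside bodies of that length. Inside the 5 shorter bodies 7 of 77 (9.09%) were, against 7.31%, and outside bodies 8 of 75 (10.7%) were, against 9.24%. In shorter bodies and outside them the share was thus within 2 percentage points of its background. With mutant library 1 left out 98 member regions were called in the other mutant and neither control (31.6%, background 23.7%), and with mutant library 2 left out 92 were (30.3%, background 19.8%). Control-only regions became 33, 41 and 20 without control library 1, control library 2 and mutant library 2 (10.3%, 12.6% and 6.58%, against backgrounds of 13.1%, 15.1% and 6.05%).

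**Figure D2:**
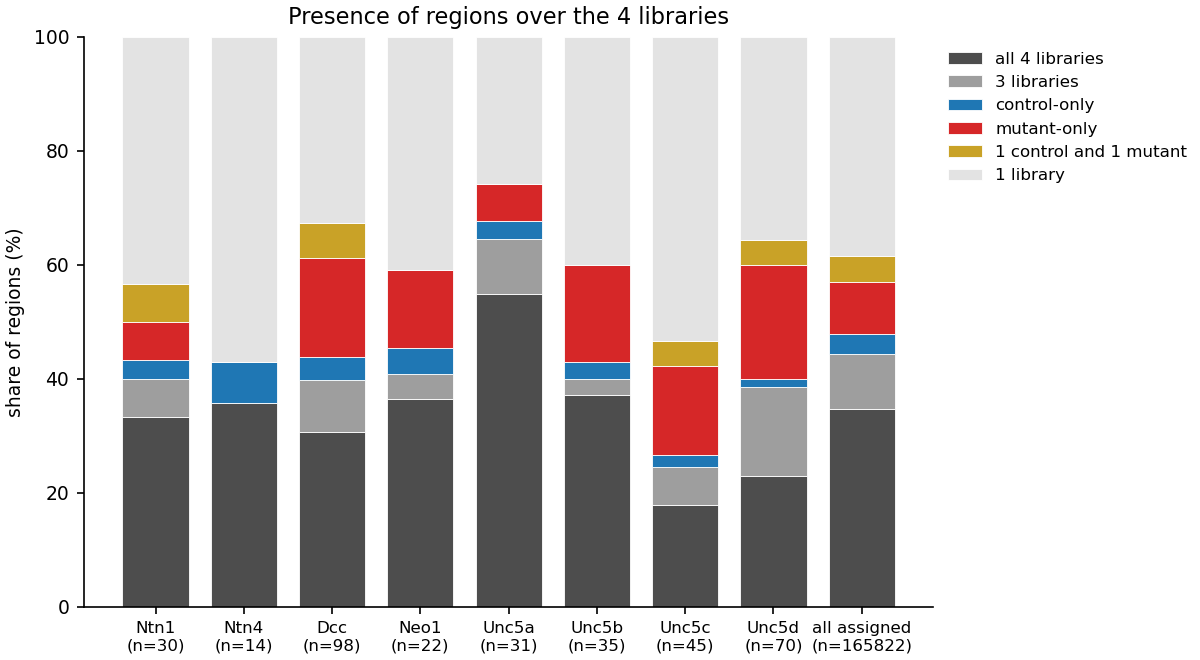
Share of regions (percent, vertical axis) in each class of presence over the 4 libraries, with 1 stacked bar for each gene and 1 for all 165822 assigned regions. Mutant-only regions (red) were 14 of 70 at Unc5d, 17.3% at Dcc, 17.1% at Unc5b and 15.6% at Unc5c, and there were none at Ntn4. They were 9.16% of all assigned regions, and 13.6% of regions inside bodies over 300 kb, such as those of Dcc, Unc5c and Unc5d.

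How strongly a region was called is given here as a percentile of its −log10 p among the intervals of its own library (list percentile). Mutant-only regions at the 8 genes had a median of 38.3 for the lower of their list percentiles, against 26.0 for all mutant-only assigned regions, and control-only regions had 27.8, against 26.8. Median widths were 452 and 370 bp, against 721 bp for the 107 regions in all 4 libraries. The same order held over all assigned regions, at 393, 322 and 770 bp. For regions in all 4 libraries the values were also ranked within the 57559 assigned regions of that kind, so that the ranked lists have the same length (shared percentile). A region was counted as ranked apart when both libraries of one genotype stood at least 10 points above both of the other. Of the 107 regions, 17 were ranked higher in both controls (15.9%, against 11.3% of the 57559) and 18 in both mutants (16.8%, against 12.2%). Both shares fell below their background when any margin was counted, at 30.8% against 32.1% and 28.0% against 28.9%. Ranking by fold enrichment, a value of the same peaks and so no separate evidence, kept 33 of these 35 regions. Counts of controls ranked higher were 31, 26 and 27 without control library 1, control library 2 and mutant library 1. These were 25.6%, 23.6% and 23.5%, against 17.2%, 17.7% and 16.9% of all such regions. Without mutant library 2 mutants ranked higher in 29 (25.9%, against 15.4%). Members and background both rose, since fewer libraries have to be apart.

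**Figure D3:**
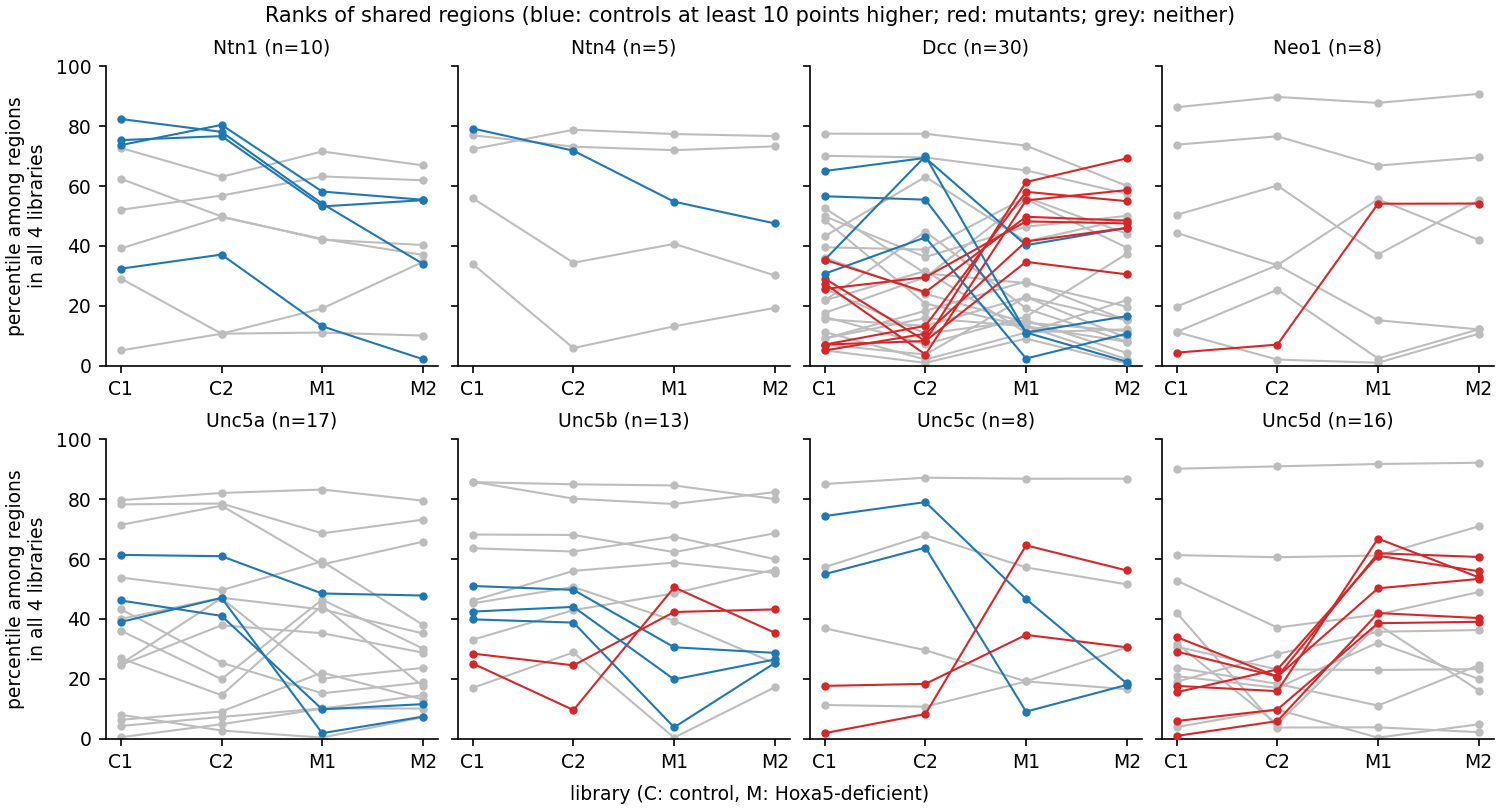
Shared percentile (vertical axis) of each region called in all 4 libraries, 1 line per region and 1 panel per gene, over the 2 control (C) and 2 Hoxa5-deficient (M) libraries; blue lines stand at least 10 points higher in both controls, red lines in both mutants, grey lines neither. Ntn1 had 4 blue lines and no red one, and Unc5d had 6 red lines and no blue one. Over all shared regions 11.3% stood that much higher in both controls and 12.2% in both mutants.

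The start sites, or gene ends where no start site was given, were open in every library. All 8 genes had 1 such region, called in all 4 libraries, with list percentiles from 75.9 to 96.7. At 7 of the 8 genes these regions were not ranked apart between genotypes, and at Ntn1 the region was. Among all shared regions that overlap an end of their gene, 2.28% were ranked higher in both controls and 1.72% in both mutants. Over both ends of the 8 genes there were 8 such regions, of which 2 were ranked higher in both controls, at Ntn1 and Unc5a, and 0 in both mutants.

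Ntn1, which encodes netrin-1, lies at chr11:68209364-68386826 and had 18 and 16 regions in controls and 15 and 20 in mutants. The numbers overlapped between genotypes, but 4 of its shared regions were ranked apart. The region at its upper-coordinate end (chr11:68384864-68387461) had shared percentiles of 75.3 and 76.7 in controls and 53.2 and 55.3 in mutants. The highest fold enrichment there was 7.11 and 7.39 against 5.27 and 6.35. A region inside the gene, 65.0 kb from the lower-coordinate end (chr11:68273843-68274870), stood at 82.4 and 78.1 against 54.1 and 34.0. A region beyond the upper-coordinate end (chr11:68399233-68400854) and another inside the gene (chr11:68239592-68240172) were also higher in both controls, by 15.5 and 19.2 points at the nearest libraries. So 4 of the 10 shared Ntn1 regions ranked higher in both controls and 0 in both mutants. Of all shared regions 11.3% and 12.2% did. Ranked by its lowest list percentile, the region 21.5 kb outside the gene came first. It overlapped between genotypes, with list percentiles of 85.8 and 80.0 in controls and 86.3 and 84.9 in mutants. In both controls 3 of the regions ranked higher in controls, at the gene end, 65.0 kb inside and beyond the end, had higher list percentiles than it. Ntn1 also had 1 control-only and 2 mutant-only regions, all inside the gene, and the stronger mutant-only one (chr11:68223469-68224303) had list percentiles of 66.2 and 82.0.

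Ntn4 encodes a netrin whose domains resemble a laminin beta chain. It lies at chr10:93641049-93745972 and had few regions, 11 and 7 in controls and 5 and 7 in mutants, overlapping between genotypes. Its start region (chr10:93640733-93642541) had list percentiles of 85.6 and 89.0 against 89.3 and 89.8. One of its 5 shared regions, inside the gene at chr10:93736090-93736634, ranked higher in both controls, with shared percentiles of 79.2 and 71.8 against 54.8 and 47.5. Together the ligand genes had 5 of 15 shared regions higher in both controls and 0 higher in both mutants, against 11.3% and 12.2% of all shared regions. All 5 also stood at least 10 points apart by fold enrichment, which is a value of the same peaks and no separate evidence.

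Dcc, the attractive netrin receptor, has the longest body of the 8, at 1098 kb (chr18:71253613-72351228), and the most regions. Controls had 40 and 57 and mutants 73 and 63. The groups did not overlap by number, but the controls differed from each other by more than the nearest control and mutant did. As shares of each library's assigned regions the groups overlapped. All 17 mutant-only and all 4 control-only Dcc regions lay inside the gene, which held 93 regions. Mutant-only regions were 13.6% of all regions inside bodies over 300 kb. The strongest mutant-only region (chr18:71875002-71875746) had list percentiles of 70.8 and 83.2, and the strongest control-only one (chr18:72324385-72324754) 48.3 and 57.3. Of 30 shared regions 7 ranked higher in both mutants (23.3%) and 4 in both controls (13.3%). These shares were near the 22.4% and 11.0% of all shared regions inside gene bodies over 300 kb, although the 30 include a region 53.0 kb outside the gene. At 341.9 kb from the lower-coordinate end a region (chr18:71595263-71595799) had shared percentiles of 56.6 and 55.4 in controls and 11.1 and 1.33 in mutants. At 943.1 kb another (chr18:72196230-72197235) had 7.04 and 13.3 in controls and 58.1 and 54.9 in mutants. The region at the upper-coordinate gene end (chr18:72350313-72351381) was little different, at 70.1 and 69.5 in controls and 65.2 and 57.4 in mutants.

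Neo1, the gene of neogenin (chr9:58874679-59036614), had 13 and 11 regions in controls and 15 and 13 in mutants, with 13 in 1 library of each genotype. Its start region (chr9:59035321-59037275) was its strongest, with list percentiles of 93.1 and 94.8 against 94.4 and 96.1. Its 1 control-only region, inside the gene at chr9:58916007-58916430, was the strongest of the 11 control-only regions at the 8 genes, with list percentiles of 71.0 and 77.1. A shared region 35.2 kb outside the gene (chr9:59071553-59072037) ranked higher in both mutants, at shared percentiles of 54.1 and 54.1 against 4.34 and 7.03 in controls. Fold enrichment at that region was 7.07 and 8.48 in mutants and 2.50 and 2.79 in controls. It was the 1 Neo1 region of 8 shared ones that was ranked apart. That is 12.5%, near the 12.2% of all shared regions that ranked higher in both mutants.

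Unc5a is the shortest of the repulsive receptor genes (chr13:54945151-55006018, 60.9 kb) and had the largest share of regions in all 4 libraries, 17 of 31. Controls had 20 and 21 regions and mutants 23 and 27, without overlap by number but with overlap as shares of each library's assigned regions. Its start region (chr13:54948619-54950026) had list percentiles of 89.6 and 90.7 against 92.3 and 91.1. At the other end of the gene both controls ranked higher. The region at the upper-coordinate end, downstream of the start site (chr13:55005205-55006193), had shared percentiles of 39.0 and 47.0 in controls and 1.84 and 7.35 in mutants. A neighbour at chr13:54994415-54995598 had 46.1 and 41.0 against 9.82 and 11.5. In all 3 of the 17 shared regions (17.6%) ranked higher in both controls and 0 in both mutants, against 11.3% and 12.2% of all shared regions. The 1 control-only and 2 mutant-only regions were weak, none over a list percentile of 46.1.

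Unc5b, a receptor also used by vascular endothelium (chr10:60762594-60831581), had 18 regions in each control and 22 and 25 in mutants. The groups did not overlap. Of its 6 mutant-only regions 4 lay outside the gene, the strongest at chr10:60904612-60905270 with list percentiles of 53.4 and 57.3. With −log10 q of 5 or more Unc5b had 1 mutant-only region. The start region (chr10:60830842-60831817) had 92.8 and 89.7 in controls and 89.9 and 92.5 in mutants, overlapping between genotypes. Of its 13 shared regions, 3 ranked higher in both controls (23.1%) and 2 in both mutants (15.4%), all of them inside the body. Of all shared regions 11.3% and 12.2% did. Regions at 5 endothelial marker genes numbered 33 and 26 in controls and 30 and 42 in mutants. Their part in the Unc5b values was not tested.

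Unc5c, the receptor with a known part in the guidance of phrenic axons (chr3:141465564-141834924), had 16 and 15 regions in controls and 26 and 28 in mutants. The mutant libraries each had at least 10 more than either control. Only 8 of its 45 regions were in all 4 libraries, the smallest share of the 8 genes at 17.8%. Its start region (chr3:141464634-141466431) was nearly level, with shared percentiles of 85.0 and 87.2 in controls and 86.8 and 86.8 in mutants. Of the 8 shared regions 2 ranked higher in both controls and 2 in both mutants (25% each), all 4 inside the gene. Of all shared regions inside bodies over 300 kb, 11.0% and 22.4% did, whereas the 8 include the start region, whose midpoint lay just outside the body. One of the 4, at 277.8 kb from the start (chr3:141743067-141743654), had 1.85 and 8.23 in controls and 64.6 and 56.2 in mutants. Its fold enrichment was 2.33 and 2.97 against 10.2 and 10.2. Near the far end of the gene 2 neighbours, 4.78 kb apart by their midpoints, went opposite ways. The first (chr3:141814196-141815264) was called in the mutants alone with list percentiles of 84.2 and 84.7, the strongest mutant-only region of the 8 genes. The other (chr3:141818956-141820060) was called in all 4 with shared percentiles of 74.3 and 79.0 in controls and 46.6 and 18.5 in mutants.

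Unc5d had the largest share of mutant-only regions of the 8 genes. It encodes an UNC5-family receptor that also binds FLRT adhesion proteins, lies at chr8:28646717-29219671 and had 30 and 31 regions in controls and 47 and 50 in mutants. The groups did not overlap. Of its 70 regions 14 were mutant-only and 1 was control-only, and 13 of the 14 lay inside the gene, which held 59 regions. Of all regions inside bodies over 300 kb, 13.6% were mutant-only. A stretch of 31.3 kb inside the gene (chr8:28782449-28813706), singled out after its values were seen, held 6 regions, 5 of them mutant-only and the other in 1 library. By the lower of their list percentiles the strongest of the 14 (chr8:28783500-28784060) stood at 53.4, with 57.3 in the other mutant library. The shared regions leaned the same way, with 6 of 16 ranked higher in both mutants and 0 in both controls. The background inside bodies over 300 kb was the 22.4% and 11.0% given for Dcc, whereas the 6 include a region outside the gene. Outside the gene, a region 46.9 kb from it (chr8:29266141-29266963) had shared percentiles of 17.6 and 15.9 in controls and 66.8 and 53.9 in mutants. Inside, a region 30.4 kb from the upper-coordinate end (chr8:29188576-29189947) had 0.913 and 5.87 in controls and 42.0 and 40.3 in mutants. The region at that end (chr8:29219053-29220007) was the strongest of the gene in every library, with shared percentiles of 90.2 and 90.9 against 91.7 and 92.1.

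**Figure D4:**
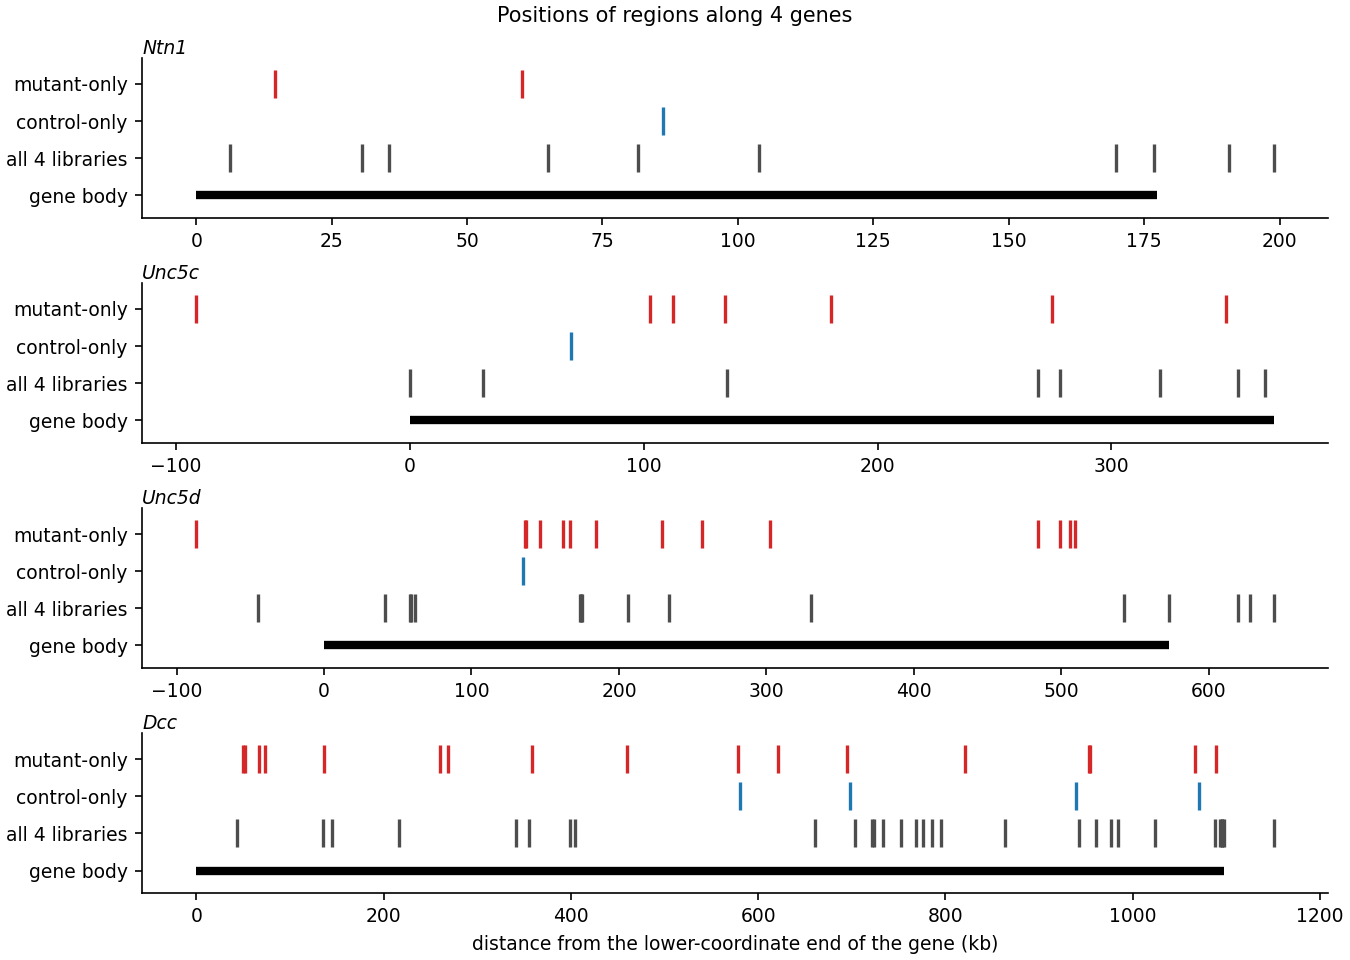
Midpoints of regions along Ntn1, Unc5c, Unc5d and Dcc, as the distance in kb from the lower-coordinate end of the gene (horizontal axis), with the gene body as a black bar and 1 row each for regions in all 4 libraries (dark grey), control-only (blue) and mutant-only regions (red). Inside Unc5d 13 mutant-only regions lay from 136.0 to 509.3 kb, and inside Dcc 17 lay from 49.5 to 1089 kb.

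The rest of the pathway was described by a list of 35 genes with 889 regions. Mutant-only regions were 10.8% of these, against 9.16% of all assigned regions, and control-only regions were 3.37%, against 3.50%. By role, mutant-only regions were 32 of 198 (16.2%) at 11 other ligands and ligand-like genes, 16 of 169 (9.47%) at 4 other receptors and 48 of 522 (9.20%) at 20 intracellular partners. Of the 32, 13 were at Ntng1 and 6 at Gpc3, whose bodies are 370 and 342 kb long. In bodies over 300 kb the mutant-only share of all regions was 13.6%, so the 16.2% cannot be set apart from gene length. Among the ligands Ntng1, which encodes a membrane-anchored netrin-G, had 13 mutant-only and 1 control-only region, with 18 and 19 regions in controls and 32 and 42 in mutants. Flrt2, which encodes an UNC5-binding adhesion protein, had 5 mutant-only and no control-only region, with 5 regions in each control and 11 in each mutant. Dscam, whose product can also bind netrin-1 and whose body is 584 kb long, had 12 mutant-only regions of 99 (12.1%) and no control-only one. Of the 99, 89 lay inside the body, so the 13.6% inside bodies over 300 kb is not a like background. Of its 30 shared regions, inside or outside the body, 13 ranked higher in both mutants (43.3%, against 22.4% inside bodies over 300 kb) and 1 in both controls. Rgma, a ligand of neogenin, had the reverse order with 4 control-only and 2 mutant-only regions. Among intracellular partners the kinase gene Fyn had 4 control-only and 8 mutant-only regions of 89, and its mutant-only share of 8.99% was near the 9.16% of all assigned regions. Genes named in this paragraph were chosen after their values were seen.

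The sort was checked against marker genes, by counting regions. All 8 motor neuron markers, Chat, Slc18a3 and Mnx1 among them, had regions in every library, 59 and 61 in controls and 70 and 81 in mutants. Floor plate markers, of cells that make netrin-1, had 58 and 60 regions against 55 and 66. Neural progenitor markers had 116 and 101 against 91 and 99, glial markers 40 and 30 against 31 and 32, and ventral interneuron markers 48 and 41 against 43 and 50. Sensory neuron markers had 27 and 25 against 23 and 37, mesenchymal markers 43 and 37 against 36 and 46, and markers of microglia and blood 13 and 17 against 14 and 17, with Gata1 at 0 in all 4 libraries. By number, only motor neuron markers (more in both mutants) and progenitor markers (fewer in both mutants) did not overlap between genotypes. All assigned regions did not overlap either, at 95026 and 91206 in controls and 101452 and 111256 in mutants. As shares of each library's assigned regions, motor neuron markers stayed higher and progenitor markers lower in both mutants. Floor plate markers (0.0610% and 0.0658% against 0.0542% and 0.0593%) and glial markers (0.0421% and 0.0329% against 0.0306% and 0.0288%) were then also lower in both mutants. Ventral interneuron markers were too, but by little (0.04495% in control 2 against 0.04494% in mutant 2), and the remaining lists overlapped. Single markers differed within the motor neuron and progenitor lists. Sox2 had 36 and 31 regions in controls against 24 and 25 in mutants, with Pax6 and Hes5 also fewer. Olig2 (8 and 5 against 9 and 10) and Nkx6-1 (12 and 13 against 16 and 17) had more in both mutants. The motor neuron marker Isl2 had fewer, at 5 and 6 against 3 and 4. Open regions lay at nearly all markers of other cells too, so region counts do not show that the sort held motor neurons alone, and the part of other cells in the values at the 8 genes was not tested.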

How the data were processed

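ATAC-seq peak lists of 4 libraries were used. MACS2 2.2.4, SAMtools 1.9, Bowtie2 2.3.4.3, FastQC 0.11.9 and the build mm10 are listed, without parameters, per the submitters' processing notes; whether reads were shifted for Tn5 is not stated there. The lists that the authors deposited, 1 per library and called separately, hold for each summit a score, its fold enrichment (a ratio to local background), −log10 p-values and −log10 q-values, and positions. The lowest deposited −log10 p is just over 2, a permissive threshold. All are the authors' values and served here to order or select peaks inside their own list. Depth is not stated and limits which weak regions are called.

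Python 3.11.15 with pandas 2.3.3 and NumPy 2.4.6 took the highest −log10 p per interval, merged intervals, and assigned them to 21887 protein-coding bodies (RefSeq, GRCm38.p6), shortest if nested; exons and introns were not annotated. Coordinates are 1-based. Groups came from the titles. Presence and ranks were described beside their background and region numbers tested by exact permutation, which cannot pass 0.05 here. The code was tested on simulated lists. Named regions were those at gene starts or ends, the strongest per gene, up to 3 group-specific ones per direction and up to 2 ranked apart per direction; others are counted, or were chosen after their values were seen. Members and lists were chosen with earlier results of these data known. The split by body length and the gene-end background were added after seeing the data. Alternatives are in the closing section.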

Additional observations from a re-analysis of the deposited data

How the results depend on the processing

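Mutant-only member regions stayed within 1.5 times of 51 with −log10 q of 5 or more, equal list lengths, windows of 100 bp to each side of summits, gene bodies alone and no distance limit (38 to 71), and their share exceeded the background in each. With −log10 q of 5 or more, regions in all 4 libraries were 60. Those ranked apart were 9 with controls higher (15.0%, against 9.80%) and 8 with mutants higher (13.3%, against 10.8%). Inside bodies up to 300 kb, added after seeing the data, there were 33 regions in all 4 libraries, 3 control-only and 7 mutant-only. The backgrounds over genes with 10 or more regions were also added after seeing the data. Without a distance limit the control-only share was 3.55%, against 3.42%. Any margin gave 33 and 30 regions ranked apart (30.8% and 28.0%, against 32.1% and 28.9% of all), and a margin of 20 points gave 8 with controls higher and 12 with mutants higher (7.48% and 11.2%, against 4.54% and 6.22%). Leaving out 1 library gave 110 to 121 regions in all the others, 15 to 41 control-only, 55 to 98 mutant-only, and 23 to 31 (controls higher) and 23 to 29 (mutants higher) ranked apart; a genotype left with 1 library needs only that library. The difference of 58.5 regions per library, and that of the share, kept their direction in each alternative run, the first from 33.5 (equal list lengths) to 66. The replicate block, differences within each replicate number, gave 60 and 57 regions, mean 58.5 (exact sign-flip p = 0.5, the smallest 2 pairs allow), and 0.0481 and 0.0165 percentage points, mean 0.0323, for the share; the labels do not say that numbers pair libraries. Ranking summits in place of intervals moved the lowest list percentile of the 60 named regions by at most 2.63 points, and ranking fold by at most 24.1.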
